A study of Nothobranchius furzeri with 30 samples.

Results

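The retinal transcriptome of 12-week-old female African turquoise killifish (Nothobranchius furzeri) was compared with that of 6-week-old females, 10 fish per age, which were 20 of the 30 fish in the series. The members were chosen by the age given in the sample labels, and the other 10 fish were 18 weeks old. All fish were untreated wild type of the inbred GRZ-AD strain, a short-lived laboratory line. The study calls 6-week-old fish young adult and 12-week-old fish middle-aged, so the interval lies within adult life by the study's terms. Only females of a single inbred line were sampled, and the 2 retinas of a fish were pooled into 1 sample. Retinas were taken after the lens and parts of the cornea had been removed and the retinal pigment epithelium (RPE) had been rinsed off. RNA was measured by QuantSeq, which reads the 3′ end of polyadenylated transcripts, so levels of different genes cannot be set against each other.

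Fish eyes keep growing through adult life. New retinal neurons come from stem cells at the margin of the retina, and Müller glia, the radial support cells of the retina, can re-enter the cell cycle. Linker histones bind the DNA between nucleosomes and compact chromatin, and most core and linker histone genes are expressed with DNA replication. Microglia are the resident immune cells of the retina. Interferons are cytokines that, through STAT and IRF transcription factors, switch on a shared set of antiviral genes.

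Counts on loci lay between 3552371 and 5840792 per fish, and no difference in their mean was detected between the ages (permutation test, two-sided, p = 0.301, adjusted over 5 measures 0.301). The share of counts on the 2 most abundant loci, which carry no gene name, was 43.0% ± 3.23 (SD, n = 10) in 6-week fish and 38.5% ± 3.60 (SD, n = 10) in 12-week fish (permutation test, two-sided, p = 0.00996, adjusted p = 0.0338), and the adjusted p was above 0.05 in 9 of 20 tests that each left out 1 fish. Levels are therefore given as CPM, the counts of a gene scaled to a common library size with TMM factors, which rest on the bulk of the genes. With library size alone the median log2FC of all tested genes moved to 0.13. Between fish of one age, at 6 or 12 weeks, log2 CPM correlated across genes with r between 0.938 and 0.970. Markers of rods were high in each fish, with a summed level of 15293 to 21783 CPM over 14 loci, and RPE markers were still present, at 934 to 1879 CPM over 18 loci at 6 weeks. Some libraries stood apart in single gene groups. The 12-week fish 2 and 7 had the highest interferon response scores of the 20 fish, 6-week fish 6 was high in type I collagen, and 6-week fish 8 was high in immune cell markers. Several results that rest on them are given with and without these fish. Among the 18-week fish, which share the fit, fish 1 stood apart, with a median r of 0.883 with its age group and 18.3% of counts on the 2 most abundant loci. A fit without it called 50 rises and 32 falls between 6 and 12 weeks, against the 47 and 23 given next.

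Of 13975 tested genes, 47 were higher at 12 weeks (0.336%) and 23 were lower (0.165%) in an edgeR quasi-likelihood fit, where the FDR had to be under 0.05 and the log2FC at least 1 in size. These genes are called below, and "rose" and "fell" are also used of genes that passed the FDR alone, of which there were 181 higher (1.3%) and 127 lower (0.909%). Of all tested genes, 7048 had a positive and 6927 a negative log2FC. These shares are the background for the counts in gene lists below. A change was said to rest on a few fish where the call was lost in at least 1 of 20 fits that each left out 1 fish, or where the difference of the group medians was under 0.5 of the fitted log2FC. This held for 25 of the 47 higher genes and 8 of the 23 lower genes. A call was lost in at least 1 fit for 19 higher and 8 lower genes. Of these, 14 higher and 6 lower genes lost it in a fit that left out a 6-week fish. Leaving out 6-week fish 7 lost 13 of the higher calls, leaving out 12-week fish 7 lost 13 and leaving out 12-week fish 2 lost 11. The median rule held for 13 higher and 0 lower genes. A call can also be lost because the log2FC lies close to 1, as in smpdl3a below, without resting on a few fish. Fish 2 and 7 were the 2 highest of the 12-week fish in 28 of the 47 higher genes (59.6%) and in 3 of the 23 lower genes (13%), against 832 of all tested genes (5.95%). Without these 2 fish, 21 of the 47 higher genes and 21 of the 23 lower genes were past both thresholds, and the totals were 21 higher and 49 lower genes. The share of higher genes among the called genes went from 67.1% to 30%. These fish were picked after the data were seen and had the highest interferon, immune and RPE scores at 12 weeks. Leaving them out therefore lowers rises and deepens falls in such genes by construction. The 47 genes were called on the same values, so the 59.6% is not independent of the choice of these fish.

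**Figure D1:**
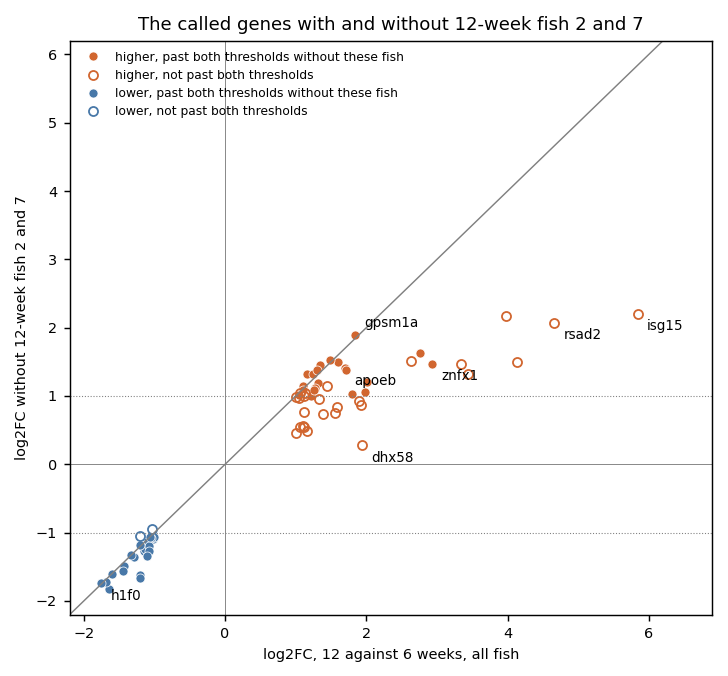
Fitted log2FC of the 70 called genes with all fish (horizontal axis) and without 12-week fish 2 and 7 (vertical axis), with the diagonal of equal values. The lower genes lie along the diagonal, while 26 of the 47 higher genes are open circles, no longer past both thresholds, with isg15 farthest to the right.

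The 4 steepest called falls were in linker histone genes. The linker histone gene h1f0 (XLOC_018411), whose product accumulates in cells that have stopped dividing, was between 272 and 576 CPM at 6 weeks with a median of 498. At 12 weeks it lay between 112 and 160 CPM with a median of 137. All 10 fish of 12 weeks were below all 10 of 6 weeks, and the fall was the steepest among called genes (log2FC = -1.75, SE 0.15, edgeR FDR = 1.49e-10). A further 3 called loci carry the name OLA.26123, and the study's own sequence search matches them to linker histone H1 genes. XLOC_006574 went from 38.8 to 105 CPM (median 81.6) at 6 weeks to 8.77 to 36.7 CPM (median 24.2) at 12 weeks, without overlap (log2FC = -1.68, SE 0.20, edgeR FDR = 8.19e-07). XLOC_005533 fell from a median of 18.0704 to 5.51 CPM (log2FC = -1.64, edgeR FDR = 1.27e-06) and XLOC_012028 from 6.26 to 2.67 CPM (log2FC = -1.60, edgeR FDR = 5.3e-05). In both, 9 of 10 fish of 12 weeks were below all 6-week fish. Reads of near-identical histone copies could be split between loci, so the values of single loci are uncertain. QuantSeq reads polyadenylated transcripts, so these values and those of H2B below cover only histone transcripts with a poly(A) tail. Histone transcripts without such a tail were not measured.

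Of 6 tested loci named as H2B, a core histone, 5 fell past the FDR and 2 of these were called, with log2FC between -1.15 and -0.56. They were counted after their values were seen. Over all tested genes 0.909% fell past the FDR and 0.165% were called lower. The H2B gene hist1h2bd (XLOC_005749) lay between 21.9 and 45.8 CPM at 6 weeks (median 31.2) and between 11.2 and 26.1 CPM at 12 weeks (median 13.4), with 12-week fish 7 alone reaching into the 6-week range (log2FC = -1.15, SE 0.15, edgeR FDR = 4.49e-06). A second H2B locus, XLOC_012029, had medians of 9.39 and 4.08 CPM (log2FC = -1.04, edgeR FDR = 0.00273) and was called in 15 of the 20 fits. hmgb1a, a chromatin protein that bends DNA, went from 450 to 581 CPM in 6-week fish to 338 to 416 CPM in 12-week fish, without overlap. The fall was small (log2FC = -0.47, SE 0.07, edgeR FDR = 3.75e-05), and it was picked here after its values were seen. Genes of proliferation and replication did not pass the test in either direction, with 0 of 23 tested past the FDR and a median log2FC of -0.16, against 0.00 for all tested genes. Of the 23, 18 had a negative log2FC, against 6927 of all 13975 tested genes.

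**Figure D2:**
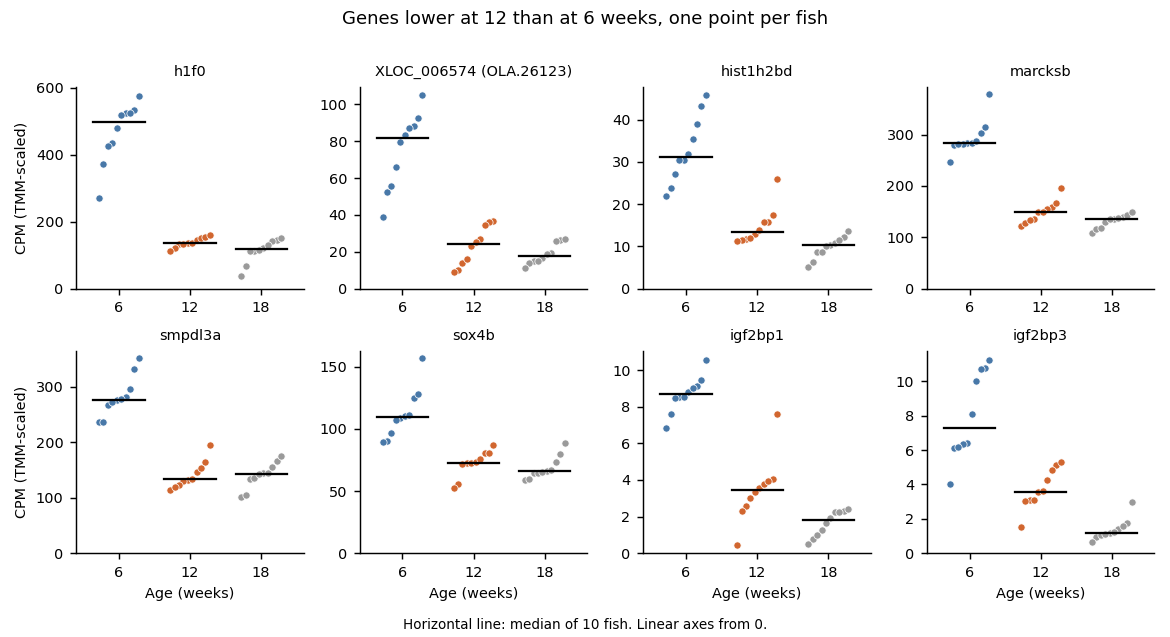
CPM per fish at 6, 12 and 18 weeks for 8 genes that fell by 12 weeks, with 1 point per fish and a line at the median of 10 fish. For h1f0, XLOC_006574, marcksb, smpdl3a and sox4b the 12-week points lie below all 6-week points, while 1 fish or more overlaps in hist1h2bd, igf2bp1 and igf2bp3.

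igf2bp1 and igf2bp3 encode RNA-binding proteins that stabilise growth-related mRNAs and are known as fetal or juvenile genes in mammals. igf2bp1 was between 6.85 and 10.5 CPM at 6 weeks (median 8.68) and between 0.442 and 7.63 CPM at 12 weeks (median 3.43). Only 12-week fish 1 reached the 6-week range (log2FC = -1.33, SE 0.24, edgeR FDR = 0.000511). igf2bp3 had medians of 7.26 and 3.59 CPM, and 6 of 10 fish of 12 weeks were below all 6-week fish (log2FC = -1.09, SE 0.21, edgeR FDR = 0.00166). They were the 2 called genes of a list of 6 tested juvenile RNA-binding and HMGA genes, which had a median log2FC of -0.36. Among all tested genes 0.165% were called lower. The call of igf2bp3 was lost with library size alone (log2FC = -0.97, edgeR FDR = 0.00383) and with the immune score as a covariate (log2FC = -0.92, edgeR FDR = 0.0653). The immune score, the mean log2 CPM of immune cell markers, was higher in all 12-week fish than in 9 fish of 6 weeks. As a covariate, here and below, it therefore takes up part of the difference between the ages by construction.

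In a list of 23 tested genes of retinal neurogenesis, 7 fell past the FDR, against 0.909% of all tested genes. None rose and none was called, and the median log2FC was -0.27. With library size alone 4 fell and 1 rose past the FDR (median log2FC = -0.15). With the immune score as a covariate 3 fell and 0 rose (median log2FC = -0.21). sox4b, a transcription factor of newborn neurons, went from 89.5 to 157 CPM (median 110) at 6 weeks to 52.7 to 86.9 CPM (median 73.0) at 12 weeks, without overlap (log2FC = -0.64, SE 0.10, edgeR FDR = 5.62e-05). Its relatives sox4a and sox11a fell by 0.58 and 0.45 on the log2 scale (edgeR FDR = 0.018 and 0.000237). fabp7a, a fatty acid carrier of radial glia and progenitors, fell by 0.80, fgfbp3 by 0.71, the tubulin gene tubb5 by 0.50 and the neuronal RNA-binding gene elavl3 by 0.27 on the log2 scale. The falls of sox4a, tubb5 and elavl3 were past the FDR in all 20 fits that left out 1 fish. With library size alone these 3 did not pass it (edgeR FDR = 0.062, 0.0946 and 0.309).

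Other genes whose ages did not overlap were marcksb and smpdl3a. marcksb, a substrate of protein kinase C in growing neurites that was also picked after its values were seen, lay between 246 and 380 CPM at 6 weeks and between 122 and 196 CPM at 12 weeks (log2FC = -0.98, SE 0.08, edgeR FDR = 1.49e-10). The locus named smpdl3a (XLOC_009822), to which the deposited annotation gives fabp7 as a second name, lay between 237 and 352 CPM and between 114 and 196 CPM (log2FC = -1.003, SE 0.10, edgeR FDR = 7.58e-09). It kept an FDR under 0.05 in each of the 20 fits, but its size was under the threshold of 1 in 9 of them. In all, 17 genes lay lower in all 10 fish of 12 weeks than in any 6-week fish (0.122% of those tested), and 15 lay higher (0.107%).

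Further called falls were in receptors, channels and metabolic genes at low levels. nrp2b, a semaphorin and VEGF co-receptor, had medians of 6.27 and 2.50 CPM (log2FC = -1.06, edgeR FDR = 0.0112). It was the called gene among 48 tested genes of axon growth and guidance, of which 2 fell and 1 rose past the FDR. Among all tested genes 0.165% were called lower, while 0.909% fell and 1.3% rose past the FDR. The call of nrp2b was lost with library size alone (log2FC = -0.93, edgeR FDR = 0.0212) and with the immune score as a covariate (edgeR FDR = 0.0647). chrm5a, a muscarinic acetylcholine receptor, went from 13.4 to 4.47 CPM in the medians (log2FC = -1.10, edgeR FDR = 0.00883), and the calcium channel gene cacna1ba from 6.31 to 3.09 CPM (log2FC = -1.02, edgeR FDR = 0.0123). The creatine kinase gene ckma had medians of 3.69 and 1.37 CPM (log2FC = -1.21, edgeR FDR = 0.00367). The vasopressin receptor gene avpr1a, with medians of 2.50 and 1.14 CPM, was called in 5 of the 20 fits, the fewest among lower genes.

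A haemoglobin locus and RPE genes were lower in most 12-week fish, with wide spread. In the red blood cell list 2 of 6 loci were tested, both named slc4a1a, the anion exchanger of the red cell membrane, and neither passed the test (log2FC = -0.25 and -0.16). The haemoglobin locus and 3 unnamed loci that follow are not in that list and were picked after their values were seen. XLOC_010718 is annotated as Nfu_g_1_007730, and the study names the gene model of the same number, written with a p in place of the g, as a haemoglobin alpha subunit of red blood cells. It lay between 879 and 3238 CPM at 6 weeks (median 1439) and between 277 and 1178 CPM at 12 weeks (median 487), and 7 of 10 fish of 12 weeks were below all 6-week fish (log2FC = -1.44, SE 0.28, edgeR FDR = 0.0016). The loci XLOC_010721, XLOC_010038 and XLOC_010041, which carry no gene name, fell by 1.29, 1.14 and 1.43 on the log2 scale, with 12-week fish 8 among the 2 highest in each. The carbonic anhydrase gene cahz went from a median of 11.8 to 4.92 CPM (log2FC = -1.07, edgeR FDR = 0.0242), with 12-week fish 7 and 8 highest as in the haemoglobin locus. It is listed here with Müller glia, and a role in red blood cells is known for it in zebrafish. From whole tissue, fewer cells of a type and less RNA per cell cannot be told apart, here and in all results below.

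Of 13 tested RPE genes, 12 had a negative log2FC, but only slc45a2, a transporter of pigment granules, passed the FDR and was called, and the median of the list was a log2FC of -0.61. Over all 13975 tested genes 6927 had a negative log2FC. slc45a2 was between 4.32 and 9.52 CPM at 6 weeks (median 5.55) and between 0.221 and 6.39 CPM at 12 weeks (median 2.19), with fish 7 and 2 highest among the 12-week fish (log2FC = -1.21, SE 0.30, edgeR FDR = 0.0168). The mean log2 CPM of the list ranged from 5.05 to 5.94 at 6 weeks and from 3.50 to 6.0698 at 12 weeks. Thus 6 fish of 12 weeks were below all 6-week fish, and 12-week fish 7 was above all of them. rpe65a, the visual cycle isomerase, had a median of 543 CPM at 6 weeks and 286 CPM at 12 weeks, and its difference did not pass the test (log2FC = -0.53, edgeR FDR = 0.258). Without fish 2 and 7, 10 of the 13 genes fell past the FDR, 6 of them called, and the median log2FC was -0.97. These fish had the highest RPE scores at 12 weeks, so leaving them out deepens the fall by construction. The RPE was rinsed off before sampling. The study observed that it clung more firmly to the retina in young than in old fish. It states that lower RPE genes with age may be an artefact of this step and draws no firm conclusion on them. The part of that step in these values was not tested.

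slc16a1, a lactate and pyruvate transporter, had medians of 11.6 and 4.49 CPM with 12-week fish 2 and 7 again highest (log2FC = -1.21, edgeR FDR = 0.0122). With the RPE score as a covariate, 14 of the 23 lower genes were past both thresholds and 9 were not. Among the 9 were slc16a1, cahz and chrm5a (log2FC = -0.54, -0.88 and -0.60, edgeR FDR = 0.167, 0.139 and 0.159), smpdl3a by its fold (log2FC = -0.89), avpr1a (edgeR FDR = 0.104) and slc45a2, which is itself part of the score (log2FC = -0.70, edgeR FDR = 0.164). h1f0, igf2bp1 and igf2bp3 were past both.

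**Figure D3:**
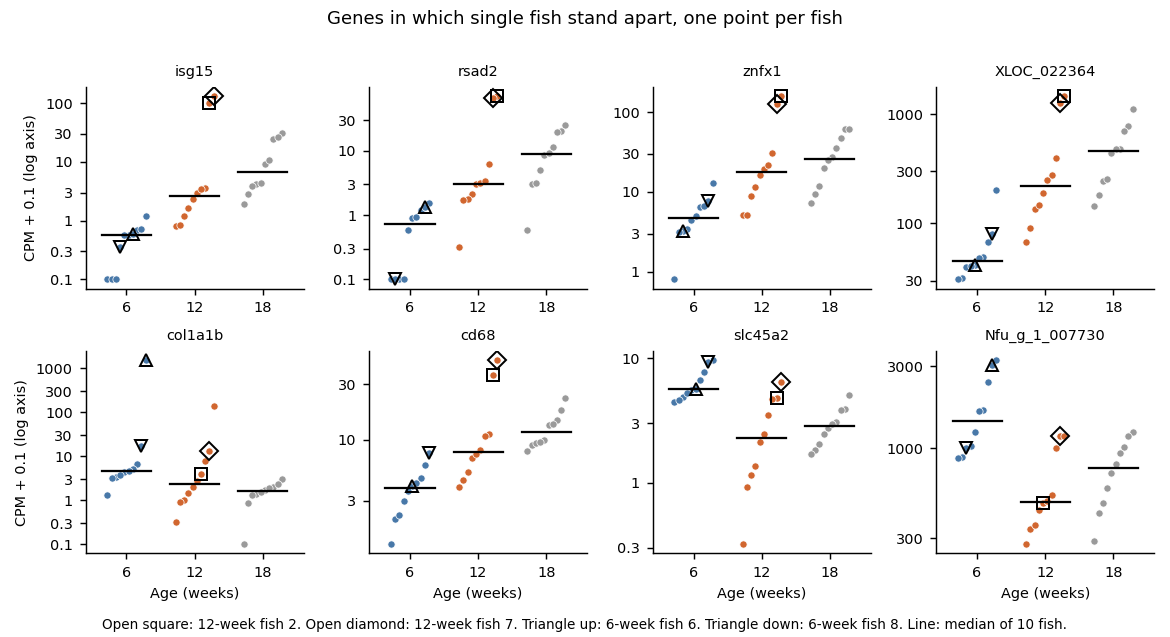
CPM plus 0.1 on a log axis for 8 genes at 6, 12 and 18 weeks, with 1 point per fish and open symbols around 12-week fish 2 and 7 and 6-week fish 6 and 8. The 2 marked 12-week fish stand far above the others in isg15, rsad2, znfx1, XLOC_022364 and cd68, and 6-week fish 6 stands far above all fish in col1a1b.

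Among rising genes, apoeb was higher in every 12-week fish than in any 6-week fish. It encodes an apolipoprotein that carries lipids between cells and is high in microglia of zebrafish. apoeb was between 81.0 and 180 CPM at 6 weeks (median 97.9) and between 187 and 608 CPM at 12 weeks (median 300), without overlap (log2FC = 1.70, SE 0.17, edgeR FDR = 1.07e-08). Without 12-week fish 2 and 7, in which it was highest, the log2FC was 1.40 (edgeR FDR = 9.41e-09). The locus with the preceding number, XLOC_011194, which has no name, had medians of 18.0 and 31.3 CPM (log2FC = 1.11).

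In the list of immune cell markers, 13 of 13 tested genes had a positive log2FC with a median of 0.71, of which apoeb was called and aif1, a microglial calcium-binding protein, rose past the FDR alone. Over all 13975 tested genes 7048 had a positive log2FC. aif1 had medians of 8.32 and 15.0 CPM (log2FC = 0.71, edgeR FDR = 0.0329). The leukocyte genes lcp1 and ptprc did not pass the test (log2FC = 0.73 and 0.71, edgeR FDR = 0.191 and 0.285). The mean log2 CPM of the list was between 2.64 and 4.06 at 12 weeks. At 6 weeks it was 3.96 in fish 8 and between 1.76 and 2.58 in the other 9 fish, so that all 12-week fish lay above these 9. Without 6-week fish 6 and 8, 8 of the 13 genes rose past the FDR and 6 were called. Fish 8 was set apart by its high values in this list, so leaving it out widens the difference by construction. Without 12-week fish 2 and 7, only apoeb passed. These were the highest of their age on this list, so leaving them out narrows the difference by construction. The summed level of the list went from 126 to 387 CPM at 6 weeks to 258 to 769 CPM at 12 weeks. The apoea locus and a locus named grna were at 0 in all 20 fish, while another locus named grna was not.

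The steepest called rises, in isg15 and rsad2, were in interferon response genes and were largest in 12-week fish 2 and 7. isg15 (XLOC_023831), a ubiquitin-like antiviral protein, was between 0 and 1.08 CPM at 6 weeks, from 0 to 4 counts per fish. At 12 weeks it was at 101 CPM in fish 2 and 133 CPM in fish 7, and between 0.714 and 3.44 CPM in the other 8 fish (log2FC = 5.85, SE 1.08, edgeR FDR = 0.000939). Even without these fish, the median of the rest, 1.91 CPM, was above the highest 6-week fish, but the difference did not pass the test (log2FC = 2.20, edgeR FDR = 0.102). rsad2, which encodes the antiviral enzyme viperin, showed the same split, with 71.4 and 65.9 CPM in fish 2 and 7, at most 6.081 CPM in the other 12-week fish and at most 1.42 CPM at 6 weeks. Its log2FC was 4.66 (edgeR FDR = 0.00124) and 2.07 without the 2 fish (edgeR FDR = 0.0848).

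Of 16 tested genes of the interferon list, 6 were called higher, 7 rose past the FDR and none fell, with a median log2FC of 0.95. Over all tested genes 0.336% were called higher and 1.3% rose past the FDR. Fish 2 and 7 were the 2 highest 12-week fish in 10 of the 16, against 5.95% of all tested genes. Without them 2 genes were called and 3 rose, and the median was 0.41. These fish were set apart by their scores on this list, so leaving them out lowers the rise by construction. In limma-voom isg15, rsad2, trim25 and dhx58 were not past the FDR (limma FDR = 0.104, 0.105, 0.0609 and 0.643).

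Some genes of the list passed without these fish. irf9, the DNA-binding partner of the STAT proteins, had medians of 1.43 and 3.69 CPM, and its rise was past both thresholds without the 2 fish (log2FC = 1.71 with and 1.38 without, edgeR FDR = 0.00403 and 0.0292). stat2 was between 4.76 and 12.9 CPM at 6 weeks and between 12.6 and 28.6 CPM at 12 weeks, with 9 of 10 fish above all 6-week fish (log2FC = 0.92, edgeR FDR = 0.000302; 0.79 without the 2 fish, edgeR FDR = 0.00183). trim25, a ubiquitin ligase of RNA sensing, went from a median of 4.24 to 9.80 CPM (log2FC = 1.98, edgeR FDR = 0.00166) and was still called without them (log2FC = 1.06, edgeR FDR = 0.0292). By contrast dhx58, an RNA sensor, was at 35.7 and 27.6 CPM in fish 2 and 7 and at most 3.97 CPM in the other 12-week fish, against at most 3.34 CPM at 6 weeks. It was called in 9 of the 20 fits, and its log2FC went from 1.94 to 0.28 without the 2 fish.

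Genes outside the list rose in the same fish. The antiviral factor gene znfx1 was at 160 and 126 CPM in fish 2 and 7, at 30.4 CPM or less in the other 12-week fish and at 12.96 CPM or less at 6 weeks (log2FC = 2.93, edgeR FDR = 0.00119; 1.47 without them, edgeR FDR = 0.0417). XLOC_022364, which the study's sequence search matches to an interferon-induced gene of the ifi27 family, was at 1472 and 1253 CPM in these fish and had medians of 45.0 CPM at 6 weeks and 220.0 CPM at 12 weeks. The rise was called with and without them (log2FC = 2.76 and 1.63). The next steepest rises after isg15 and rsad2 were in XLOC_020726, XLOC_019429, BX572630.2 and CABZ01045230.1, loci with no described function here (log2FC = 4.14, 3.98, 3.44 and 3.34). All 4 were highest in fish 2 and 7 of the 12-week fish, and none passed the test without them (log2FC = 1.503, 2.17, 1.32 and 1.47, edgeR FDR = 0.169, 0.108, 0.185 and 0.204). helz2, a helicase, and mov10, an RNA-binding antiviral helicase, rose with log2FC of 2.01 and 2.63, and without the 2 fish helz2 was called and mov10 was not (edgeR FDR = 0.036 and 0.0581). cd68, a lysosomal protein of macrophages, was at 35.9 and 47.8 CPM in fish 2 and 7 and between 3.84 and 11.1 CPM in the others, against 1.17 to 7.61 CPM at 6 weeks (log2FC = 1.89; 0.92 without them, edgeR FDR = 0.0559).

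The same 2 fish had the highest immune scores of the 12-week fish, 3.86 and 4.06 against at most 3.06 in the others, and the highest RPE scores. The 6-week fish 8, with an immune score of 3.96, had an interferon score of 2.54, the highest at 6 weeks, where fish 2 and 7 reached 4.60 and 4.50. With the immune score as a covariate, the log2FC of isg15 was 2.95 (edgeR FDR = 0.245) and 0 of the 16 interferon genes passed the FDR. On this score all 12-week fish lay above 9 of the 6-week fish, so the covariate takes up part of the age difference by construction. Whether immune cell content plays a part in these values was not tested.

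**Figure D4:**
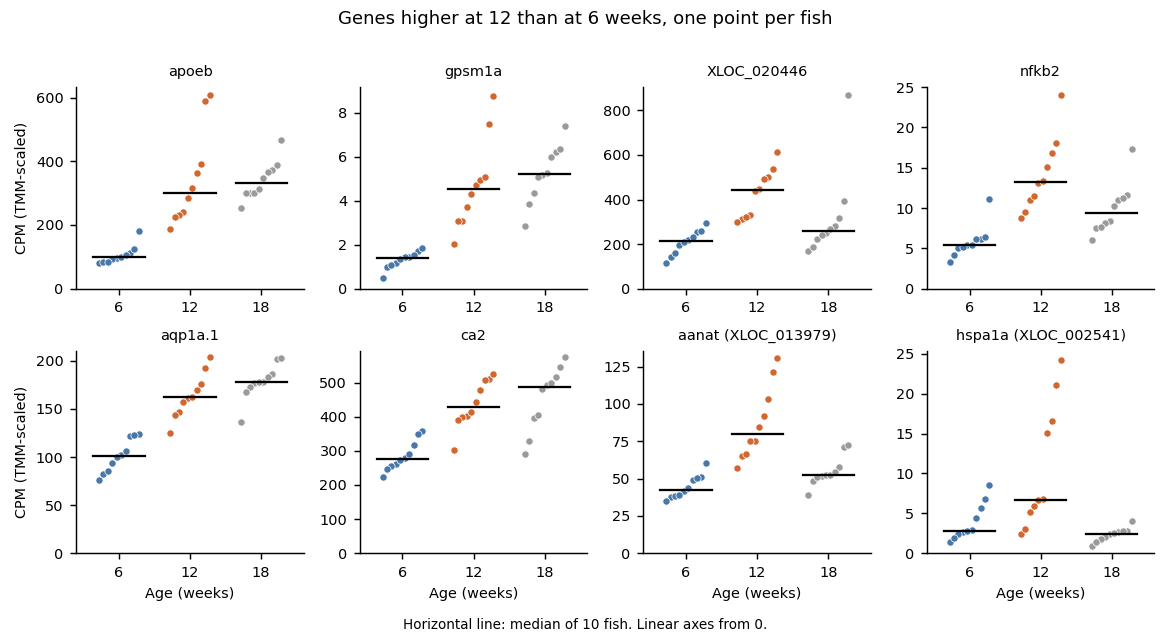
CPM per fish at 6, 12 and 18 weeks for 8 genes that rose by 12 weeks, with 1 point per fish and a line at the median of 10 fish. The 12-week points of apoeb, gpsm1a, XLOC_020446 and aqp1a.1 lie above all 6-week points, and the 18-week median of hspa1a, 2.47 CPM, is below its 12-week median of 6.74 CPM.

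Rises that were spread over most fish included signalling and glial genes. nfkb2, a subunit of the non-canonical NF-kB pathway, was between 3.31 and 11.2 CPM at 6 weeks (median 5.39), its highest fish being fish 8, and between 8.77 and 24.0 CPM at 12 weeks (median 13.2). It was called in all 20 fits (log2FC = 1.28, SE 0.20, edgeR FDR = 5.3e-05). With the immune score as a covariate nfkb2 passed the FDR but not the fold threshold (log2FC = 0.84, edgeR FDR = 0.0228). It was the called gene of 14 tested NF-kB and acute inflammation genes, in which cxcl12b, a chemokine, also rose (log2FC = 0.73, edgeR FDR = 0.0123) and the median log2FC was 0.29. Among all tested genes 0.336% were called higher and 1.3% rose past the FDR. gpsm1a, a regulator of G-protein signalling, was between 0.476 and 1.86 CPM at 6 weeks, from 2 to 9 counts per fish, and between 2.02 and 8.77 CPM at 12 weeks, without overlap (log2FC = 1.84, SE 0.25, edgeR FDR = 8.1e-06). XLOC_020446, without a gene name, lay between 115 and 293 CPM and between 299 and 612 CPM (log2FC = 1.05, edgeR FDR = 0.00177). asgr1, named after a lectin receptor of the liver, had medians of 4.49 and 11.1 CPM (log2FC = 1.32, edgeR FDR = 5.01e-06), and crlf1a, a cytokine-like secreted factor, of 1.603 and 4.42 CPM (log2FC = 1.35, edgeR FDR = 0.00559).

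Of 11 tested Müller glia genes, aqp1a.1, ca2 and hepacam rose past the FDR and cahz fell, with a median log2FC of 0.25. Among all tested genes 1.3% rose and 0.909% fell past it. The list also holds loci named rlbp1b, and the study found rlbp1b in the RPE and rlbp1a in the neural retina. With these loci and cahz in the list, the count and the median do not cover Müller glia alone. aqp1a.1, a water channel, was between 76.2 and 124 CPM at 6 weeks (median 101) and between 125 and 204 CPM at 12 weeks (median 162), without overlap (log2FC = 0.69, SE 0.09, edgeR FDR = 4.49e-06). ca2, a carbonic anhydrase, had medians of 276 and 428 CPM, with 9 of 10 fish above all 6-week fish (log2FC = 0.62, edgeR FDR = 0.000569), and hepacam, a glial adhesion protein, of 14.5 and 19.2 CPM (log2FC = 0.43, edgeR FDR = 0.0317). rlbp1a, the retinaldehyde carrier of Müller glia, was between 456 and 548 CPM and between 505 and 772 CPM and missed the threshold (log2FC = 0.26, SE 0.07, edgeR FDR = 0.0508). Picked after their values were seen, ccnd2a, a cyclin, went from 21.5 to 36.2 CPM to 38.4 to 62.9 CPM and abi3bp, a matrix protein, from 8.83 to 19.5 CPM to 21.6 to 42.4 CPM. Neither overlapped between the ages (log2FC = 0.90 and 0.99, edgeR FDR = 2.18e-07 and 3.44e-05). clu, which encodes the secreted chaperone clusterin, lay between 96.4 and 113 CPM and between 132 and 203 CPM (log2FC = 0.60, edgeR FDR = 0.0313), past the FDR in 15 of the 20 fits.

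Of 8 tested genes of melatonin synthesis, a pair named aanat, the enzyme that sets the rate of melatonin production, rose past the FDR, against 1.3% of all tested genes. The rest, another aanat locus (XLOC_010723) among them, did not pass it. XLOC_013979 was between 34.7 and 60.6 CPM at 6 weeks (median 42.5) and between 57.3 and 131 CPM at 12 weeks (median 79.9), highest in fish 2 and 7 (log2FC = 0.96, SE 0.13, edgeR FDR = 4.49e-06). XLOC_008564 went from a median of 18.5 to 33.1 CPM (log2FC = 0.85, edgeR FDR = 0.00047). The list had a median log2FC of 0.21, and clock genes did not pass the FDR, 0 of 10 activators and 0 of 20 repressors and outputs.

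Of 17 tested heat shock and chaperone genes, 3 rose past the FDR, against 1.3% of all tested genes. None fell and the median log2FC was 0.23. The inducible hsp70 gene hspa1a (XLOC_002541) was between 1.35 and 8.54 CPM at 6 weeks (median 2.83) and between 2.38 and 24.2 CPM at 12 weeks (median 6.74), with 4 fish above all 6-week fish (log2FC = 1.44, SE 0.33, edgeR FDR = 0.0111). Without 12-week fish 2 and 7 its call was lost (log2FC = 1.14, edgeR FDR = 0.0612). The other tested hspa1a locus, XLOC_003379, did not pass the FDR. The small heat shock gene hspb1 had medians of 9.69 and 18.4 CPM (log2FC = 0.88, edgeR FDR = 8.54e-05), and the endoplasmic reticulum chaperone hsp90b1 of 49.8 and 65.1 CPM (log2FC = 0.65, edgeR FDR = 0.0109).

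Some large fitted changes were not called, and several of them came with single fish far above the rest. There were 31 genes with a log2FC of 1 or more in size and an FDR of 0.05 or more, 17 higher and 14 lower. The type I collagen genes col1a1b, col1a1a and col1a2, which encode the main fibrous protein of sclera, cornea and skin, had fitted log2FC of -3.21, -2.80 and -2.56 (edgeR FDR = 0.0797, 0.111 and 0.122). col1a1b was at 1514 CPM in 6-week fish 6, at 16.8 CPM in fish 8 and lower in the other 6-week fish, with a median of 4.47 CPM. At 12 weeks it was at 140.02 CPM in fish 3 and at most 12.8 CPM in the others, with a median of 2.26 CPM. col1a1a and col1a2 were likewise highest in 6-week fish 6, at 934 and 1178 CPM, and next in 12-week fish 3, at 115 and 171 CPM. Without 18-week fish 1, col1a1b was past both thresholds (log2FC = -3.22, edgeR FDR = 0.0408). Without 6-week fish 6 the signs of all 3 turned (log2FC = 1.67, 1.64 and 1.24, edgeR FDR = 0.205, 0.198 and 0.283). The keratin gene krt5, an epithelial marker of the cornea list, was at 465 CPM in the same fish against a 6-week median of 24.2 CPM (log2FC = -1.60, edgeR FDR = 0.0806). XLOC_011288 was at 160 CPM in that fish and at most 8.88 CPM in the other 6-week fish, and also turned sign without it. XLOC_001673 rested on 12-week fish 2 and 7 instead, at 28.6 and 34.0 CPM against at most 4.11 CPM in the others (log2FC = 1.98, edgeR FDR = 0.0749). It was called without 18-week fish 1 (edgeR FDR = 0.0436), and without 12-week fish 2 and 7 its log2FC was 0.34.

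Some called genes kept the call in few of the 20 fits and had an FDR close to 0.05. kcnk16, a potassium channel, was called in 4 fits, XLOC_007311, without a name, in 8, and CABZ01070468.1 in 9. Their medians were 1.58 and 3.15, 1.02 and 2.44, and 1.27 and 3.17 CPM at 6 and 12 weeks. In these 3 the fish 2 and 7 were not both at the top, and without them the calls of kcnk16 and XLOC_007311 were lost (log2FC = 1.05 and 0.997, edgeR FDR = 0.0894 and 0.113), while CABZ01070468.1 was called (log2FC = 1.38).

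Few markers of retinal neurons passed the test. In rods, cones, horizontal, bipolar and amacrine cells 0 of 14, 9, 7, 10 and 9 tested markers passed the FDR, with median log2FC of 0.17, -0.07, -0.15, -0.06 and 0.07. The log2FC was positive in 13, 1, 1, 3 and 6 of them and negative in the rest. Of 14 tested retinal ganglion cell markers, pou4f1, a transcription factor of these cells, fell past the FDR (log2FC = -0.32, edgeR FDR = 0.0462), and the median was -0.06. Oligodendrocyte and vessel markers had 0 of 9 and 0 of 8 past the FDR, with median log2FC of -0.03 and 0.29. Of the 8 vessel markers 7 had a positive log2FC, the highest being 1.02, and 1 a negative one. In ribosomal proteins, 0 of 74 passed with a median of -0.06, and in oxidative phosphorylation 0 of 33 with a median of -0.14. A negative log2FC was found in 64 of the 74 and 26 of the 33, against 6927 of all 13975 tested genes. A p that misses the threshold does not show that these genes stayed the same.

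**Figure D5:**
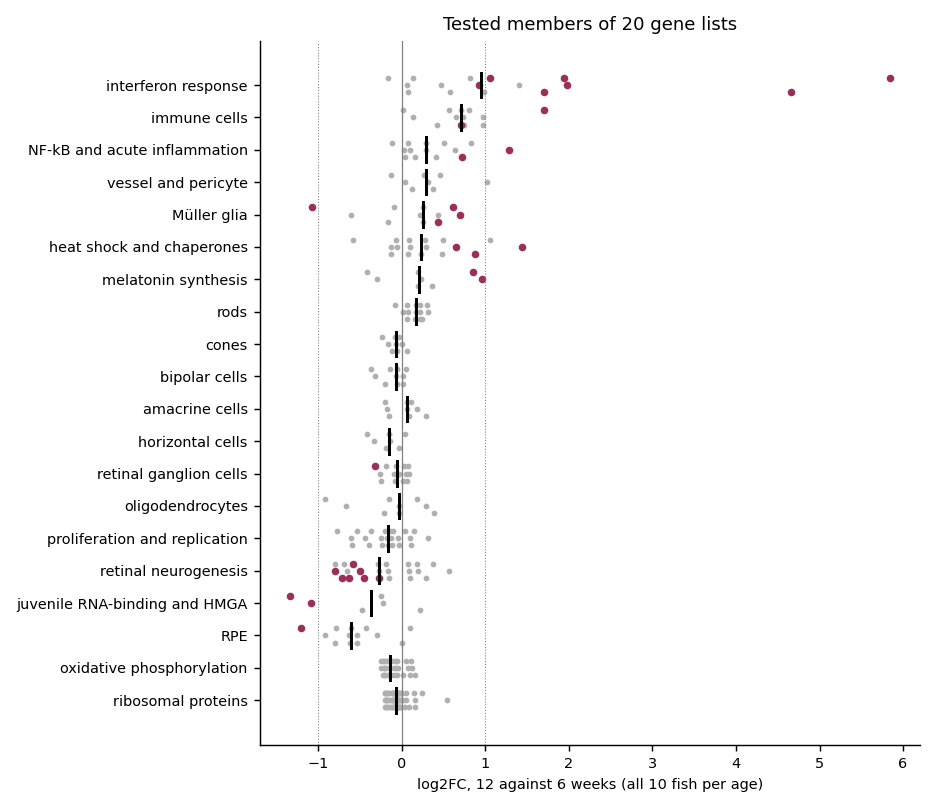
Fitted log2FC at 12 against 6 weeks of the tested members of 20 gene lists, with 1 point per gene, dark where the FDR was under 0.05 and grey otherwise, and a bar at the list's median. The interferon list reaches log2FC = 5.85 and has a median of 0.95, while neuron lists lie close to 0 and the RPE list lies mostly below it.

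Of 31 loci of genes that the study names from its bulk data, 4 were called, all higher: apoeb, nfkb2, trim25 and zc3hdc1l (XLOC_004739). Over all tested genes 0.501% were called. The study names many of these genes for changes between 6 and 18 weeks in these libraries, so the count is not an independent result. The locus zc3hdc1l is the one that the study reports as optn. Its sequence search gives optn of zebrafish and PARP12 of human. The locus annotated as optn (XLOC_005472) was not called. zc3hdc1l had medians of 12.4 and 17.5 CPM, was highest in 12-week fish 2 and 7, and lay at the threshold with an FDR of 0.0336. It was called in 13 of the 20 fits and not without these 2 fish (log2FC = 0.46, edgeR FDR = 0.297), nor with RLE or upper-quartile factors, DESeq2, limma-voom, robust fitting, the replicate block (edgeR FDR = 0.0705) or the immune score. A further 4 rose past the FDR alone and 2 fell. egfra, the epidermal growth factor receptor, rose with a log2FC of 0.48 (edgeR FDR = 0.0142), as did htra1b, a secreted protease, with 0.48 (edgeR FDR = 0.0499). tardbp, an RNA-binding protein, went from 59.4 to 70.5 CPM to 44.7 to 58.7 CPM without overlap (log2FC = -0.32, edgeR FDR = 0.0356). One tgfb3 locus rose and the other fell (log2FC = 0.48 and -0.45, edgeR FDR = 0.045 and 0.0492). The remaining 21 did not pass the FDR and had log2FC between -0.80 and 0.62. They included bdnf (XLOC_013115), a neurotrophin, with medians of 16.3 and 8.77 CPM (log2FC = -0.72, edgeR FDR = 0.104), and the clock gene arntl with medians of 5.73 and 5.78 CPM.

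The 18-week fish show where these genes stood later. The comparisons of 12 and of 18 weeks share the 6-week fish, so their values are given side by side and not as independent findings. h1f0 had a median of 119 CPM at 18 weeks, against 137 CPM at 12 weeks (log2FC at 18 against 12 weeks = -0.28, edgeR FDR = 0.212), and apoeb 330 against 300 CPM (log2FC = -0.01, edgeR FDR = 0.979). igf2bp1 and igf2bp3 were lower again at 18 weeks, with medians of 1.79 and 1.2003 CPM (log2FC at 18 against 12 weeks = -1.08 and -1.43, edgeR FDR = 0.00734 and 0.000153). hspa1a (XLOC_002541) returned to 2.47 CPM, lower than at 12 weeks (log2FC = -2.21, edgeR FDR = 4.02e-05). The pair of aanat loci that had risen by 12 weeks parted, with XLOC_013979 falling from 79.9 to 52.4 CPM (log2FC = -0.66, edgeR FDR = 0.000515) and XLOC_008564 rising from 33.1 to 80.5 CPM (log2FC = 1.15, edgeR FDR = 5.14e-07). bdnf and arntl, which had not passed at 12 weeks, differed between 12 and 18 weeks (log2FC = -1.44 and 1.13, edgeR FDR = 0.000306 and 0.000272). isg15 was between 1.80 and 31.4 CPM at 18 weeks with a median of 6.63 CPM, a level under that of 12-week fish 2 and 7 and above the median of the 12-week fish. Without 18-week fish 1 the differences between 12 and 18 weeks of h1f0, apoeb and isg15 did not pass the test either, and those of igf2bp1, igf2bp3, hspa1a, both aanat loci, bdnf and arntl did (edgeR FDR = 0.0118, 0.000232, 2.54e-05, 0.000433, 2.43e-07, 0.000337 and 5.72e-05). igf2bp1 was then just under the fold threshold (log2FC = -0.99), and the median of isg15 was 8.93 CPM.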

How the data were processed

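The 3′ end libraries (QuantSeq) of neural retina came from 30 female fish, 10 per age. The authors deposited raw read counts per locus for each fish, made with Trim Galore 0.6.7, cutadapt 3.4, STAR 2.7.0 against a custom transcriptome and HTSeq 0.11.2. Lines for reads without a feature (20.7% to 27.7% of reads in the 20 fish) and ambiguous reads (0.838% to 1.16%) entered neither the library sizes nor the tests. Gene names came from the deposited annotation table, whose summary columns of single-cell data were not used.

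Counts of 24989 loci were filtered with filterByExpr, which left 13975 loci with 99.6% of the counts. They were scaled by TMM and fitted with edgeR 4.0.16 (R 4.3.3) in a quasi-likelihood model with 1 coefficient per age over all 30 fish. The contrast was 12 against 6 weeks, with Benjamini-Hochberg adjustment over all tested loci. Log2 CPM used a prior count of 2, and so did the list scores and the group medians of the few-fish rule. The fitted log2FC did not use it and kept the default of the fit. With a prior count of 0.125 in the medians, the few-fish rule held for 24 of the 47 higher and 8 of the 23 lower genes. The script was tested on simulated counts. Library measures were compared by two-sided permutation tests with 100000 resamples. The genes named were, among called named genes, the 10 highest and 10 lowest by log2FC, up to 3 called members per list by FDR, up to 10 called loci without overlap between the ages, up to 5 calls kept in the fewest fits, up to 5 large uncalled changes, genes the study names from its bulk data, and list members that were not called. marcksb, hmgb1a, ccnd2a, abi3bp, clu, cd68, asgr1, crlf1a and other genes outside this rule were picked after their values were seen. The members and the lists were chosen with earlier results of these data known. Alternatives used limma 3.58.1 and DESeq2 1.42.0. The labels give 1 sample per fish, and no count column was identical to another. Precision was limited by 10 fish per age and by low counts in genes such as isg15, where the 6-week fish had 17 counts in all.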

Additional observations from a re-analysis of the deposited data

Results flagged for a closer look

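Over the 65 named loci and the library measures, 140 sets of 10 fish were examined with Dixon's ratio (gap to the nearest fish over the whole range). At its 95% critical value 21 passed. That value assumes normally distributed data, while CPM entered without a log. Some loci were also named because they rest on a few fish. The 21 can therefore not be set against a share expected by chance. In all of them a single fish was the highest of its group.

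The 6-week fish 8 stood apart in 5 measures. It had 10.7 CPM of XLOC_001673 (next fish 3.10), 12.9 CPM of OLA.3485 (next 5.01), 11.2 CPM of nfkb2 (next 6.44) and 180 CPM of apoeb (next 124). Its share of ambiguous reads was 1.16% (next 1.01%). The 6-week fish 6 stood apart in 4, with 1514 CPM of col1a1b (next 16.8), 934 CPM of col1a1a (next 13.5), 1178 CPM of col1a2 (next 24.4) and 160 CPM of XLOC_011288 (next 8.88). Single results were helz2 in 6-week fish 4 at 9.99 CPM (next 6.097) and kcnk16 in 6-week fish 2 at 4.45 CPM (next 2.27).

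At 12 weeks fish 3 stood apart in the 3 collagen genes, with 140.02 CPM of col1a1b (next 12.8), 115 CPM of col1a1a (next 9.06) and 171 CPM of col1a2 (next 12.2). Fish 7 had 26.1 CPM of hist1h2bd (next 17.4) and 15.6 CPM of slc16a1 (next 8.51). Fish 9 had 5.55 CPM of XLOC_012028 (next 2.85) and 10.8 CPM of arntl (next 6.31). Fish 10 had 22.2 CPM of the tgfb3 locus XLOC_009644 (next 17.0), fish 2 had 25.3 CPM of cdkn1b (next 19.8) and fish 1 had 7.63 CPM of igf2bp1 (next 4.04). The interferon genes do not appear here, since fish 2 and 7 were both high and lay close to each other.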

How the results depend on the processing

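The counts of 47 higher and 23 lower genes moved with several choices, and the causes were not tested. Higher genes numbered 75 with library size alone (14 lower, 84.3% of calls higher, against 67.1%), 29 with limma-voom (51.8%), 27 with a stricter filter, 90 with the RPE score as a covariate (80.4%), 9 with the immune score as a covariate (64 lower, 12.3%) and 181 with the FDR alone (127 lower). Lower genes numbered 44 with no filter. Of 4 settings chosen after seeing the data, leaving out 12-week fish 2 and 7 gave 21 higher and 49 lower genes (30%), leaving out 6-week fish 6 and 8 gave 76 higher (75.2%), leaving out all 4 gave 43 lower (46.9%), and leaving out 18-week fish 1 gave 50 higher and 32 lower. Leaving out 1 fish at a time gave 34 to 65 higher and 22 to 31 lower genes. With the fish number as a replicate block, 37 were higher and 25 lower. Equal numbers did not pair the fish, since same-numbered deviations correlated with r from -0.109 to 0.0934 and 0 fish matched their own number best.

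The share of the 2 most abundant loci differed by -3.93 percentage points as medians (adjusted p = 0.0773) and by -5.26 to -3.79 with 1 fish left out. The TMM factor differed by 0.0726 as medians (adjusted p = 0.0738) and by 0.0668 to 0.0998. Both had an adjusted p above 0.05 in 9 of the 20 tests with 1 fish left out. The ambiguous share differed by 0.0344 to 0.0729 points, with an adjusted p of 0.042 without 6-week fish 8.

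Signs turned in genes that were not called, and in dhx58. With the immune score as a covariate, log2FC was -0.31 for dhx58, -0.050 for XLOC_001673, 0.46 for rlbp1b XLOC_002898 and -0.14 for cdkn1a. With the RPE score it was 0.084 for rpe65a, -0.089 for mapta, 0.10 for rlbp1b XLOC_019050 and -0.037 for arntl. Without 6-week fish 6 and 8 it was 2.11 for col1a1b, 2.03 for col1a1a, 1.58 for col1a2, 0.72 for XLOC_011288 and -0.087 for arntl. Without all 4 fish these were 2.29, 2.26, 1.82, 0.49 and -0.087, with -0.019 for the locus annotated as optn (XLOC_005472) and -0.060 for pcdh15a XLOC_018820. With 1 fish left out the ranges were -5.48 to 1.67 for col1a1b, -4.99 to 1.64 for col1a1a, -4.64 to 1.24 for col1a2, -1.91 to 0.50 for XLOC_011288, -0.011 to 0.051 for mapta and -0.12 to 0.16 for arntl. DESeq2 gave 0.50 for XLOC_011288, and rlbp1b XLOC_002898 was at 0.039 with library size alone and 0.0038 with limma-voom. Of 65 named loci, 52 kept their direction and side of the threshold without 12-week fish 2 and 7.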

Other observations

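Stress and energy pathways outside the results above had few genes past the FDR. In a list of 22 tested oxidative stress genes, sqstm1, an autophagy receptor, rose (log2FC = 0.53, edgeR FDR = 0.0253) and none fell. In the amino acid stress list of 17 tested genes, chac1, which degrades glutathione, fell (log2FC = -0.53, edgeR FDR = 0.0253). Of 25 tested glycolysis genes, ldha, a lactate dehydrogenase subunit, fell (log2FC = -0.39, edgeR FDR = 0.0338). Genes of oxidative phosphorylation had a negative log2FC in 26 of 33, each small, and 0 passed the FDR. Over all 13975 tested genes 6927 had a negative log2FC. Among 33 tested collagen and matrix genes, lama5, a laminin chain of basement membranes, rose (log2FC = 0.61, edgeR FDR = 0.00303) and sparc, a collagen-binding matrix protein, fell (log2FC = -0.52, edgeR FDR = 0.00632). Of 57 tested transmitter receptor genes, grm8, a metabotropic glutamate receptor, rose (log2FC = 0.64, edgeR FDR = 0.0459). None of these was called.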
